A study of Mus musculus with 6 samples.

Results

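Mitochondrial fatty acid oxidation is described here by 30 genes of 46095 rows in the deposited table, chosen by gene symbol: the carnitine shuttle, the acyl-CoA dehydrogenases, the later enzymes of the beta-oxidation cycle, the electron transfer proteins, ketone body enzymes, malonyl-CoA decarboxylase and 2 mitochondrial sirtuins. All 30 symbols were found in the table, and all 30 passed the filter on low counts that left 14757 genes for testing. Long-chain fatty acids enter mitochondria as carnitine esters, and each turn of beta-oxidation then removes an acetyl-CoA unit through dehydrogenation, hydration, a further dehydrogenation and thiolysis. The electrons from the acyl-CoA dehydrogenases pass through the electron transfer flavoprotein to the respiratory chain. Brown adipocytes burn fatty acids in this way to make heat.

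RNA was sequenced from brown adipocytes differentiated in culture, with 3 control and 3 U-IRX3ov libraries, all on the C57BL/6 background. Stromal vascular cells, the non-adipocyte fraction of digested fat, came from brown adipose tissue of mice 5 weeks old. Cells of both genotypes were induced for 8 days, with insulin (5 µg/mL), rosiglitazone (1 µM) and triiodothyronine (1 µM) throughout and with dexamethasone (1 µM) and IBMX (0.5 mM) for the first 2 days. The name U-IRX3ov gives overexpression of IRX3, a homeobox transcription factor, and the titles of these libraries read KI. The sources used here do not give its construct, promoter or target cells. The library descriptions also hold the word combined, with no word on what was joined. Nothing in the labels says whether libraries of a group came from separate animals or cultures, so p-values measure the spread between these libraries, which may be technical.

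Promoter windows show where the genes that moved together, and those that moved the other way, begin. RefSeq promoter entries (GRCm38.p6, the assembly of mm10) matched 25 of the 30 genes, in 27 windows, with none for Acaa2, Acat1, Cpt1b, Crat and Decr1. Hadha and Hadhb, the subunits of the trifunctional protein, start head to head on chromosome 5 with 272 bases between their RefSeq start sites, and the windows of 250 bases upstream of each share 228 bases. Hadhb is shown for this shared region, Cpt2 and Etfdh as members that rose and hold a match to the ETS or the NRF1 site, and Cpt1a and Cpt1c as the members that fell. Each line gives the 250 bases before the RefSeq start site, 5′ to 3′ on the strand of the gene. The GENCODE annotation starts Etfdh at base 79629500 and Cpt1a at base 3322334, so the windows of these genes lie inside the GENCODE genes. Capitals mark matches on either strand to any motif searched.
Hadhb (chr5:30155003-30155252, plus strand): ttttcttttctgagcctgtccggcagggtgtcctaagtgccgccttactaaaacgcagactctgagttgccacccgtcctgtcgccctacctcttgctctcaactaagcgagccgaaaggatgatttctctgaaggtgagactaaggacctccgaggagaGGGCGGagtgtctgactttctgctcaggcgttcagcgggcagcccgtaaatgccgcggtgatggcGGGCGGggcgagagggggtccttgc
Cpt2 (chr4:107923590-107923839, minus strand): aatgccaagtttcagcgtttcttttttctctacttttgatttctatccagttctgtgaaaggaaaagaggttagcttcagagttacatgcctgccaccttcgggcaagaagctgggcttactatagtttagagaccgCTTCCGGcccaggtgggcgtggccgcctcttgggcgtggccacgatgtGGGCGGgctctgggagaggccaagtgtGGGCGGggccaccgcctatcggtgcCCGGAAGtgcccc
Etfdh (chr3:79628768-79629017, minus strand): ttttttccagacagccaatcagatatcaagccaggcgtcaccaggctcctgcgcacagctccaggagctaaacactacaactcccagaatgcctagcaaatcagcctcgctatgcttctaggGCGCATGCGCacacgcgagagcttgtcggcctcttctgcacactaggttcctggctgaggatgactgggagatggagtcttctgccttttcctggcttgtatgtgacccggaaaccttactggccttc
Cpt1a (chr19:3323051-3323300, plus strand): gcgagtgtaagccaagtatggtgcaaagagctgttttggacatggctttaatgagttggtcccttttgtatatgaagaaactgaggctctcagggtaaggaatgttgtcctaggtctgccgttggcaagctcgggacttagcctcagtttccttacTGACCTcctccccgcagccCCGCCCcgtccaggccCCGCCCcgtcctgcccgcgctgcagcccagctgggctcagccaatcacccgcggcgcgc
Cpt1c (chr7:44974852-44975101, minus strand): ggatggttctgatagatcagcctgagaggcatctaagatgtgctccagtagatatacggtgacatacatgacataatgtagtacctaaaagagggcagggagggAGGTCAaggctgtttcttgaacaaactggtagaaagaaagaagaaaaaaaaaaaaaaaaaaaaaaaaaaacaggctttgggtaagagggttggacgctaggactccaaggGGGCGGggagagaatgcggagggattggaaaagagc

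The search covered 7 exact motifs on both strands: the nuclear receptor core AGGTCA, the DR1 element bound by PPAR (AGGNCA repeated in 1 direction with 1 base between), the extended ERR motif TCAAGGTCA, the NRF1 site GCGCATGCG, the ETS site CCGGAAG, the cAMP response element TGACGTCA and the GC box GGGCGG. The nuclear receptor core lies inside the ERR motif and can lie inside the DR1 element. The GC box was found in 15 of the 27 member windows (55.6%) and in 32.7% of all 32851 windows. AGGTCA occurred in 6 member windows (22.2%, against 14.0% of all), those of Acadm, Acadvl, Cpt1a, Cpt1c, Echs1 and Sirt5. The ETS site was found in the windows of Cpt2, Mlycd and Sirt3 (11.1%, against 6.91% of all), and the NRF1 site in those of Acad12, Acadm and Etfdh (11.1%, against 1.45%). No member window held the DR1 letters, the ERR motif or the cAMP response element, which occurred in 0.338%, 0.387% and 1.55% of all windows. These are matches of letters within the windows searched and were not measured as sites.

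Library totals ran from 20094799 to 26755870 counts, and the 30 genes took 0.624% to 0.636% of the counts in control and 0.913% to 0.961% in U-IRX3ov libraries. Irx3, the gene named in the genotype, had 131, 142 and 138 counts in the control libraries and 163, 123 and 114 in the U-IRX3ov libraries. Scaled to library size, these were 4.78, 5.42 and 5.12 CPM (counts relative to the library size after TMM scaling) against 6.27, 6.31 and 5.89 CPM, and the groups did not overlap. The log2 fold change of Irx3 was 0.27 ± 0.13 (SE; edgeR adjusted p = 0.112), which did not pass the test, and whether reads of the construct are counted under this symbol is not known. Adipocyte markers were abundant in both groups. The summed level of adipocyte markers was 23723 to 25180 CPM in control and 33510 to 34940 CPM in U-IRX3ov libraries, and 11 of 11 were higher. Adipoq, the gene of adiponectin, was at 1199 and 1346 CPM, and Ucp1, the uncoupling protein of brown fat, at 19.7 and 240 CPM. Fibroblast and preadipocyte markers (11 of 11 lower) summed to 9106 to 9345 CPM in control and 5654 to 6071 CPM in U-IRX3ov, and leukocyte markers (10 of 10 tested lower) to 473 to 580 and 152 to 228 CPM. Over all genes tested 20.2% were called higher and 21.1% lower. The fibroblast marker Pi16, named after its value was seen, had 38, 29 and 36 counts in control and 5, 2 and 4 in U-IRX3ov libraries. It passed the filter on low counts only through the control libraries, which favours a fall. Pericyte and smooth muscle markers (6 of 8 lower, 1 higher) summed to 4827 to 5080 CPM in control and 3023 to 3359 CPM in U-IRX3ov, and endothelial markers (5 of 8 higher) to 22.6 to 26.8 and 43.5 to 49.0 CPM. In bulk RNA, fewer cells of a type and less RNA per cell cannot be told apart, and the part of cell composition in the results below was not tested.

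Most fatty acid oxidation genes were higher in U-IRX3ov than in control adipocytes. Of the 30 members, 26 rose and 2 fell, while 20.2% of the 14757 genes tested were called higher and 21.1% lower, 41.3% in all (edgeR, adjusted p under 0.05). The median log2 fold change of the members was 0.61, and that of all genes tested was -0.005. The median was 0.53 for adipocyte markers, -0.82 for fibroblast markers and -1.34 for leukocyte markers. Summed over the members, the level was 6121, 6047 and 6136 CPM in the control libraries and 9398, 9596 and 10039 CPM in the U-IRX3ov libraries. The groups did not overlap, and the sum was 1.59-fold higher in U-IRX3ov (exact permutation test, two-sided p = 0.1, the smallest that 3 against 3 libraries can give). The sum includes Acadvl, which was uneven within groups, at 105, 4.93 and 5.01 CPM in control and 7.65, 8.06 and 134 CPM in U-IRX3ov.

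Values after ± are standard errors for log2 fold changes and SDs over 3 libraries for CPM. The rise reached at least 1.5-fold in 16 members and at least 2-fold in 2, Acaa2 and Sirt3. Tested against a change of 1.5-fold, 9 members were higher and 0 lower (1.88% and 2.74% of all genes tested): Acadm, Hadha, Hadhb, Hadh, Echs1, Acaa2, Acat1, Etfa and Sirt3. Against a change of 1.2-fold, 21 were higher (7.6% of all genes) and only Cpt1c was lower (10.1%). In CPM, the groups did not overlap for 26 members with higher values and 1 with lower values in U-IRX3ov (24.9% and 25.9% of all genes, 50.8% together), and they overlapped for Cpt1a, Acadvl and Bdh1. Leaving aside Acadvl, whose counts were uneven within groups, U-IRX3ov library 3 had the highest value of its group in 18 of 29 members and U-IRX3ov library 1 the lowest in 19. The median coefficient of variation within a group was 2.73% in control and 3.96% in U-IRX3ov.

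**Figure D1:**
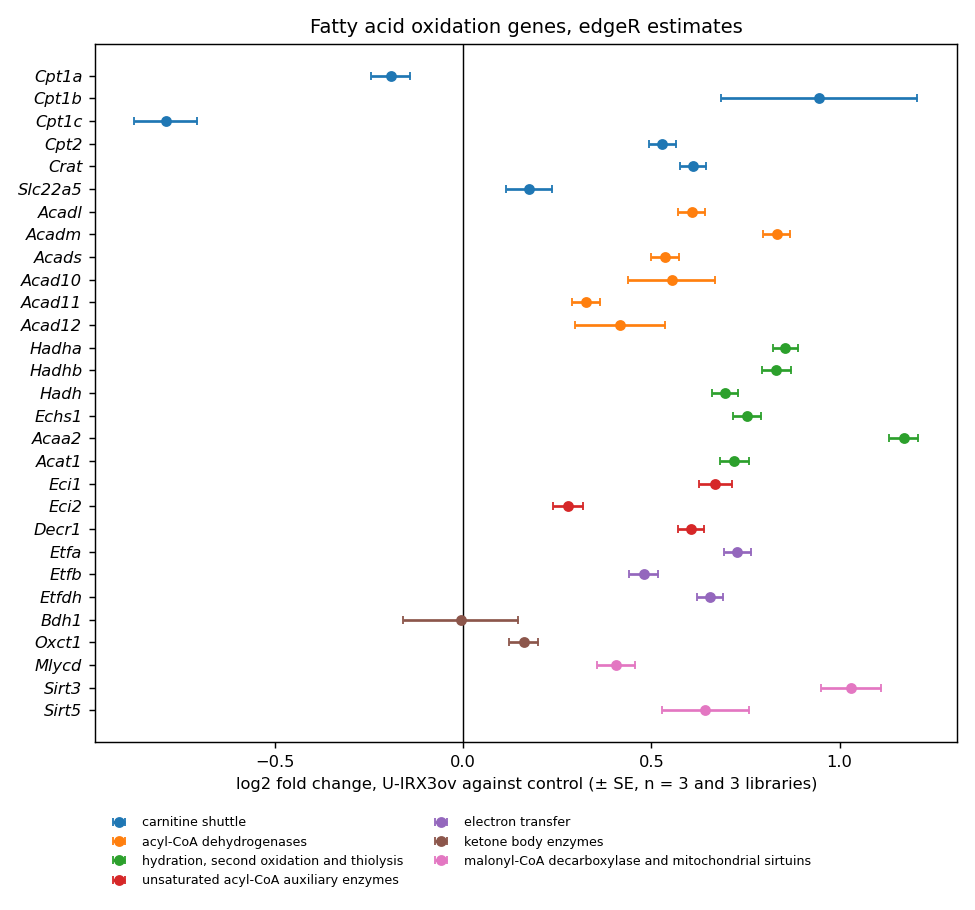
Log2 fold change of 29 members (all but Acadvl) in U-IRX3ov against control, with bars of ± 1 SE from the edgeR fit on 3 and 3 libraries, coloured by role. Acaa2 lies farthest to the right at 1.17 and Cpt1c farthest to the left at -0.79.

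**Figure D2:**
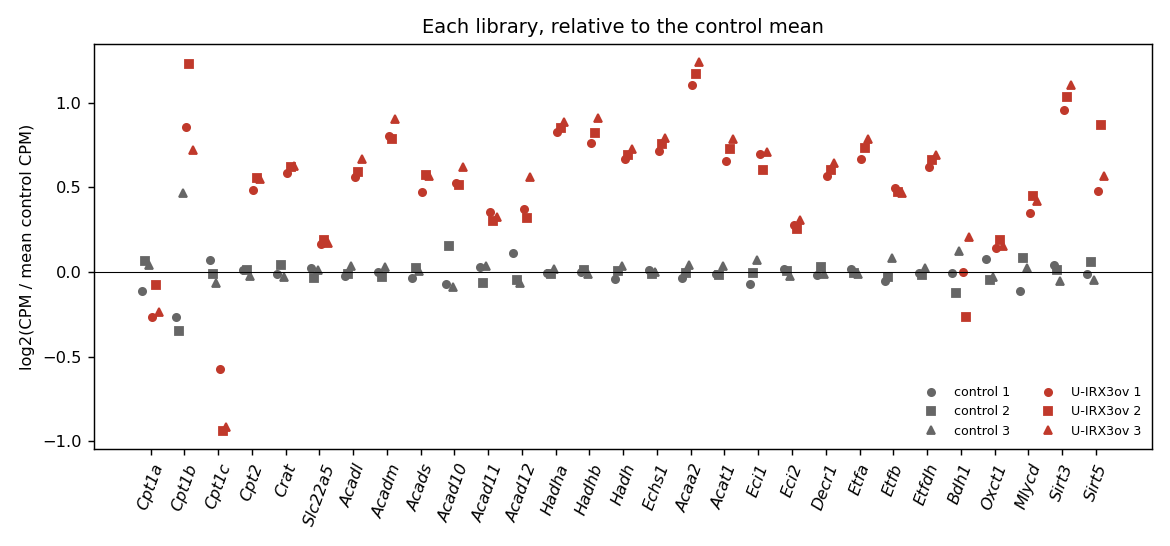
Each library's CPM for 29 members (all but Acadvl) as the log2 ratio to the mean of the control libraries, control in grey and U-IRX3ov in red. The U-IRX3ov points lie above all control points for 26 genes, below them for Cpt1c, and overlap them for Cpt1a and Bdh1.

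The genes of the carnitine shuttle moved in both directions, with 4 of 6 higher and 2 lower. Cpt1 attaches long-chain acyl groups to carnitine at the outer mitochondrial membrane and is the step inhibited by malonyl-CoA. Cpt1a, the liver-type isoform and the one with the most counts here, had 144, 163 and 160 CPM in control and 129, 147 and 132 CPM in U-IRX3ov libraries. U-IRX3ov library 2 lay above control library 1, so the groups overlapped. Cpt1a fell by 0.19 ± 0.05 on the log2 scale (SE; edgeR adjusted p = 0.00680), and it did not pass the test against a 1.2-fold change. Cpt1c, the isoform best known from neurons, fell further, from 30.1, 28.4 and 27.4 CPM to 19.2, 14.9 and 15.1 CPM. Its log2 fold change was -0.79 ± 0.08 (adjusted p = 1.88e-08), with U-IRX3ov library 1 nearest to control. An annotated antisense gene, 6530437J22Rik, covers 6.53% of its exon bases.

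Cpt1b, the muscle-type isoform that is also typical of brown fat, had only 30, 27 and 49 counts in control and 62, 60 and 42 in U-IRX3ov libraries. In CPM this was 1.10, 1.03 and 1.82 against 2.38, 3.08 and 2.17, a rise of 0.95 ± 0.26 on the log2 scale (adjusted p = 0.00434). These counts are uncertain. Cpt1b spans bases 89416405 to 89425863 of chromosome 15 on the minus strand. The readthrough gene Gm44502 covers 81.4% of the exon bases of Cpt1b on the same strand and was listed at 0 in all 6 libraries, while the upstream neighbour Chkb had 1 to 4 counts per library. Gm44502 also covers 50.7% of the exon bases of Chkb on the same strand, so the counts of Chkb are uncertain too. Cpt1b made up 0.754%, 0.630% and 1.12% of the Cpt1a plus Cpt1b counts in control and 1.81%, 2.05% and 1.61% in U-IRX3ov libraries. The groups did not overlap (exact permutation test, two-sided p = 0.1, the smallest possible). Skeletal muscle markers summed to 25.2 to 30.0 CPM in control and 24.7 to 33.8 CPM in U-IRX3ov libraries. Most of that sum came from Acta1, skeletal muscle alpha-actin, which fell from 20.1 to 14.7 CPM. The other 11 markers summed to 5.71 to 8.47 CPM in control and 11.9 to 17.8 CPM in U-IRX3ov libraries, and so were higher in the same libraries as Cpt1b. Of the 12 markers 6 were tested, with 4 higher and 1 lower and a median log2 fold change of 1.19. Those that rose were the myosin Myh1 (1.31 to 3.94 CPM, log2 1.57 ± 0.25), myoglobin Mb (log2 3.29 ± 0.63, at most 20 counts), the troponin Tnnt3 (log2 2.01 ± 0.46) and desmin Des (log2 0.80 ± 0.17), all named after their values were seen. Mb had 4, 2 and 0 counts in control and Tnnt3 had 9, 5 and 8. Both passed the filter on low counts only through the U-IRX3ov libraries, which favours a rise in the count of markers and in the median. Myf5 was at 0 in every library, Myod1 had 0 to 6 counts and Ckm 0 to 2. The part of muscle-type transcripts in the Cpt1b result was not tested.

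The enzymes on the inner side of the shuttle rose. Cpt2, which returns acyl groups from carnitine to CoA in the matrix, had 198, 197 and 193 CPM in control and 274, 288 and 287 CPM in U-IRX3ov libraries. The groups lay well apart, with a log2 fold change of 0.53 ± 0.04 (adjusted p = 2.15e-12). The ratio of Cpt1a to Cpt2 counts, looked at after these values were seen, was 0.796 ± 0.057 in the control group and 0.482 ± 0.027 in the U-IRX3ov group (SD, n = 3). Crat, the carnitine acetyltransferase that buffers acetyl-CoA, rose from 293 ± 7.36 to 448 ± 7.34 CPM (log2 0.61 ± 0.04, adjusted p = 6.02e-14). Slc22a5, the plasma membrane carnitine transporter, had the smallest called rise but 1 of the list, 0.18 ± 0.06 (adjusted p = 0.0219). Its CPM values were tight, 29.8 to 31.0 in control and 34.2 to 34.7 in U-IRX3ov libraries. The call was lost without control library 2 (adjusted p = 0.0647).

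**Figure D3:**
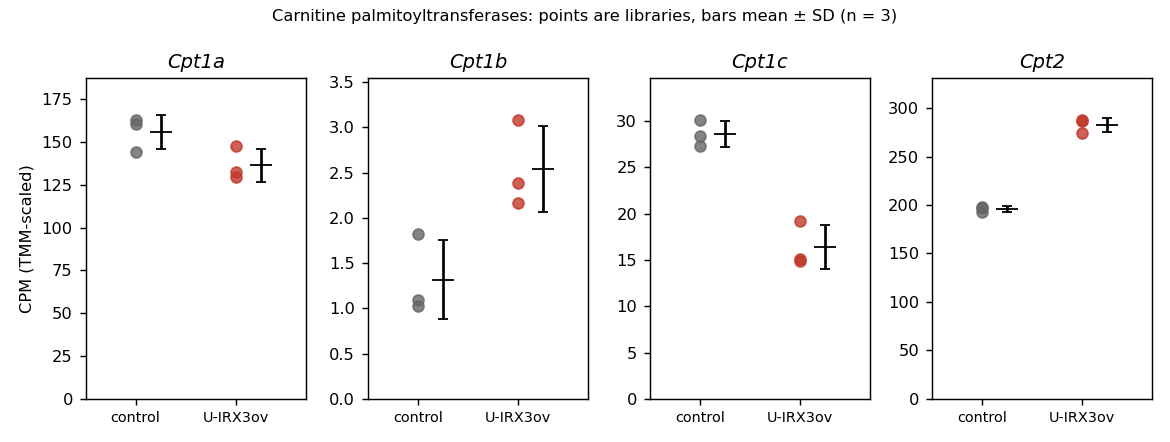
TMM-scaled CPM of Cpt1a, Cpt1b, Cpt1c and Cpt2, each on its own axis from 0, with points for the 6 libraries and bars for mean ± SD (n = 3). Cpt1c and Cpt2 separate in opposite directions, Cpt1a overlaps between groups, and Cpt1b stays under 3.1 CPM in every library.

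Acyl-CoA dehydrogenases, which open each turn of the cycle and differ in the chain length they prefer, rose in 6 of 7 members. Acadm, the medium-chain enzyme, had 705, 693 and 720 CPM in control and 1234, 1218 and 1322 CPM in U-IRX3ov libraries. This was a rise of 0.83 ± 0.04 on the log2 scale (adjusted p = 2.29e-16) with no overlap. Acadl, the long-chain enzyme, had 643, 647 and 667 CPM against 962, 983 and 1036 CPM (log2 0.61 ± 0.04, adjusted p = 7.91e-14). Acads, the short-chain enzyme, went from 202 ± 4.30 to 293 ± 11.5 CPM (log2 0.54 ± 0.04, adjusted p = 3.63e-12). The order Acadm, Acadl, Acads of these log2 fold changes was not tested. Less is known of Acad10, Acad11 and Acad12, which rose by 0.55 ± 0.12, 0.33 ± 0.04 and 0.42 ± 0.12 on the log2 scale. Acad10 and Acad12, neighbours on chromosome 5, stayed near 10 CPM or lower in every library.

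Acadvl, the very-long-chain enzyme of the inner mitochondrial membrane, could not be compared. Its raw counts were 2882, 129 and 135 in the control libraries and 199, 157 and 2589 in the U-IRX3ov libraries. Control library 1 and U-IRX3ov library 3 were thus high and the other 4 libraries low. In CPM the highest library was 21.4 times the lowest in control and 17.5 times in U-IRX3ov. Among the 9044 rows with over 300 counts in any library, only 4 differed by more than 5-fold within a group (with 5 counts added), namely Acadvl, Atp6v1e1, Errfi1 and Gstp1. The log2 fold change was 0.34 ± 1.82 (adjusted p = 0.905), and it was 3.29 without control library 1 and -2.30 without U-IRX3ov library 3. In mm10, Acadvl spans bases 70010183 to 70015411 of chromosome 11 (minus strand), and exons of Dvl2 on the other strand cover 42.9% of its exon bases. Dvl2, a WNT pathway scaffold, ranged over 26 to 72 counts, with 65 in control library 1 and 26 in U-IRX3ov library 3, where Acadvl was high. The part of this overlap in the uneven counts was not tested. Without Acadvl the counts of members called were the same, 26 and 2.

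**Figure D4:**
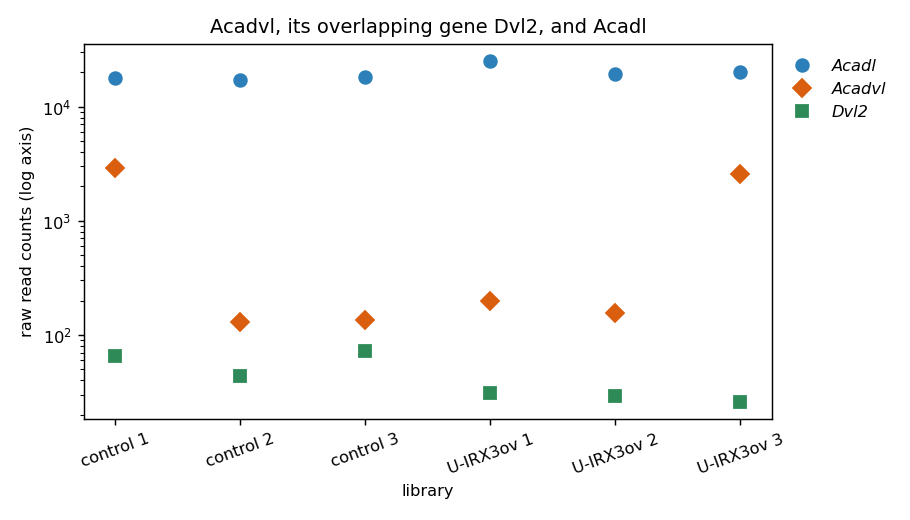
Raw read counts of Acadl, Acadvl and Dvl2 in the 6 libraries on a log axis. Acadvl is at 2882 and 2589 in control library 1 and U-IRX3ov library 3 and between 129 and 199 in the other 4, while Acadl lies above Acadvl and Dvl2 below it in every library.

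The enzymes that complete the cycle after the dehydrogenases rose most, with 6 of 6 members higher and also higher against a 1.5-fold change. Together they went from 1840 ± 23.6 to 3315 ± 103 CPM (SD, n = 3), and their share of the members' summed CPM went from 30.2% to 34.3%. Acaa2, the mitochondrial 3-ketoacyl-CoA thiolase that releases acetyl-CoA, led the whole group. It had 233, 237 and 245 CPM in control and 513, 536 and 563 CPM in U-IRX3ov libraries, a 2.25-fold rise (log2 1.17 ± 0.04, adjusted p = 1.13e-18). Hadha and Hadhb code the alpha and beta subunits of the trifunctional protein, which carries out the last 3 reactions on long-chain substrates. Hadha had 698, 694 and 708 CPM in control and 1244, 1261 and 1295 CPM in U-IRX3ov libraries (log2 0.86 ± 0.03, adjusted p = 2.79e-17). Hadhb had 223, 224 and 221 CPM against 377, 393 and 419 CPM (log2 0.83 ± 0.04, adjusted p = 7.88e-16).

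The balance between the trifunctional subunits stayed within the spread of the libraries. Counts per kilobase of Hadha were 2.36, 2.34 and 2.42 times those of Hadhb in control and 2.49, 2.42 and 2.34 times in U-IRX3ov libraries. The difference in the log2 ratio was 0.03 (exact permutation test, two-sided p = 0.5), with overlapping groups. The absolute ratio depends on the length used, and was 3.43 in control with the longest transcript in place of all exon bases. The RefSeq starts of these genes lie 272 bases apart in the region shown above. The GENCODE annotation places Hadha at 30118304 to 30155162 (minus strand) and Hadhb at 30155248 to 30184593 (plus strand) of chromosome 5, which leaves 85 bases between the genes, so the sources differ in the start of Hadha.

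The remaining enzymes of these steps act on short and medium chains. Echs1, the short-chain enoyl-CoA hydratase, rose from 150 ± 1.12 to 253 ± 6.68 CPM (log2 0.76 ± 0.04). Hadh, the short-chain hydroxyacyl-CoA dehydrogenase, had 359, 372 and 380 CPM in control and 588, 598 and 614 CPM in U-IRX3ov libraries (log2 0.70 ± 0.04, adjusted p = 4.61e-15). Acat1, the acetoacetyl-CoA thiolase that also serves ketone and isoleucine breakdown, rose from 159 ± 3.12 to 261 ± 11.9 CPM (log2 0.72 ± 0.04). None of these 3 overlapped between groups. Annotated exons of Paox on the other strand cover 1.71% of Echs1.

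Auxiliary enzymes for unsaturated fatty acids rose in 3 of 3 members, by unequal amounts. Decr1, the dienoyl-CoA reductase, had 338, 349 and 339 CPM in control and 508, 520 and 534 CPM in U-IRX3ov libraries (log2 0.61 ± 0.04, adjusted p = 6.15e-14). Eci1, an enoyl-CoA isomerase of the matrix, rose by 0.67 ± 0.04 on the log2 scale. Eci2, an isomerase found in peroxisomes as well as mitochondria, rose by 0.28 ± 0.04 (adjusted p = 1.58e-06), from 94.6 to 115 CPM, and did not pass the test against a 1.2-fold change.

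Electron transfer genes rose in 3 of 3 members. Etfdh, the oxidoreductase that hands the electrons to ubiquinone, had 413, 409 and 421 CPM in control and 636, 655 and 668 CPM in U-IRX3ov libraries (log2 0.66 ± 0.03, adjusted p = 9.07e-15). Etfa, the alpha subunit of the flavoprotein, had 316, 311 and 310 CPM against 496, 519 and 539 CPM (log2 0.73 ± 0.04, adjusted p = 3.24e-15). Etfb, its partner subunit, had 193, 197 and 212 CPM against 284, 279 and 277 CPM (log2 0.48 ± 0.04, adjusted p = 5.47e-11). Etfa thus had the larger change. Per kilobase, Etfa counts were 1.04, 1.00 and 0.926 times those of Etfb in control and 1.11, 1.18 and 1.23 times in U-IRX3ov libraries. The groups did not overlap, with a difference in the log2 ratio of 0.25 (exact permutation test, two-sided p = 0.1, the smallest possible). Exons of other genes on the same strand, mainly Gm45233, cover 58.2% of Etfb, so its counts are uncertain.

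Ketone body genes changed little. Oxct1, the enzyme that activates acetoacetate for use as fuel, had 228, 209 and 213 CPM in control and 239, 247 and 242 CPM in U-IRX3ov libraries. The groups did not overlap, and the rise of 0.16 ± 0.04 on the log2 scale was the smallest called among the members (adjusted p = 0.00120). Bdh1, the beta-hydroxybutyrate dehydrogenase, was near 5 CPM in both groups, with 4.86, 4.47 and 5.31 CPM in control and 4.88, 4.05 and 5.63 CPM in U-IRX3ov libraries. Its log2 fold change was -0.01 ± 0.15 (adjusted p = 0.977). An antisense gene, Gm15743, covers 13.7% of the exon bases of Bdh1, and BC037032 on the other strand covers 12.6% of those of Oxct1.

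Malonyl-CoA decarboxylase and the sirtuins rose in 3 of 3 members. Mlycd, which removes the malonyl-CoA that inhibits Cpt1, had 62.9, 72.1 and 69.1 CPM in control and 86.7, 93.0 and 91.1 CPM in U-IRX3ov libraries (log2 0.41 ± 0.05, adjusted p = 1.39e-07). Sirt3, the main mitochondrial protein deacetylase, had 341, 319 and 314 counts in control and 610, 482 and 504 in U-IRX3ov libraries. In CPM this was 12.4, 12.2 and 11.7 against 23.5, 24.7 and 26.0, a 2.04-fold rise (log2 1.03 ± 0.08, adjusted p = 2.62e-11). Exons of Psmd13 and Ric8a on the other strand cover 12.7% of Sirt3. Sirt5, which removes succinyl and malonyl groups from mitochondrial proteins, went from 7.55 ± 0.29 to 11.9 ± 1.73 CPM (log2 0.64 ± 0.12, adjusted p = 4.60e-05), with U-IRX3ov library 2 the highest at 13.8 CPM.

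Levels per kilobase of exon show which members dominated. Acadl was highest in control at 325 CPM per kilobase, followed by Acadm at 180, Etfb at 173, Etfa at 170 and Acaa2 at 157. Etfb (SD 8.66) overlapped both Acadm (SD 3.48) and Etfa (SD 1.93) in control, so the order of Etfb against either lies within its spread. In U-IRX3ov cells Acadl stood at 496, Acaa2 at 354, Acadm at 322, Etfa at 282 and Etfb at 241. With the longest transcript as the length, Acadm (345 in control, 615 in U-IRX3ov) lay above Acadl (340 and 519), so the order of these genes depends on the gene model. Lowest were Cpt1b (0.390 in control), Acad12, Acad10, Sirt5 and Bdh1, each under 1.3 CPM per kilobase. Hadha, Acadm, Acadl and Etfdh had the most counts and together made up 40.2% to 41.0% of the members' summed CPM in control and 42.9% to 43.4% in U-IRX3ov libraries.

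Partners of the carnitine shuttle outside the 30 genes rose in 5 and fell in 2 of 9 tested. Over all genes tested 20.2% were higher and 21.1% lower, so the fall in 2 of 9 is near the share of all genes. These shares stand beside the counts of the lists that follow as well. Slc25a20, the carrier that moves acylcarnitines across the inner membrane, rose by 0.48 ± 0.04 on the log2 scale (adjusted p = 3.17e-11). Acacb, the acetyl-CoA carboxylase that makes malonyl-CoA at mitochondria, rose from 342 ± 14.1 to 688 ± 22.6 CPM (log2 1.01 ± 0.04, adjusted p = 1.11e-17). The rise of Acacb stands beside that of Mlycd, which acts in the opposite direction, and the ratio of Acacb to Mlycd counts was 5.03 ± 0.308 in the control group and 7.63 ± 0.079 in the U-IRX3ov group (SD, n = 3). This ratio was chosen after the values were seen. Acaca (0.55 ± 0.04), the cytosolic carboxylase, and Aldh9a1 (0.57 ± 0.04), an enzyme of carnitine synthesis, rose as well. The genes that fell, Slc22a4 (-0.77 ± 0.15) and Slc16a9 (-0.46 ± 0.10), are plasma membrane transporters and were named after their values were seen.

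Genes for acyl-CoA supply and thioesterases rose in 9 and fell in 1 of 13 tested, with a median log2 fold change of 0.18. Acsf2, a mitochondrial acyl-CoA synthetase, rose from 51.3 ± 2.54 to 105 ± 6.40 CPM (log2 1.03 ± 0.05), and the thioesterase Acot13 rose by 0.77 ± 0.07. Acsl1, the main long-chain acyl-CoA synthetase of adipocytes, was at 2712 CPM in control and rose by only 0.26 ± 0.03. Acsl3 rose by 0.34 ± 0.05. The gene that fell was Acsm5 (named after its value was seen), which had at most 26 counts in a library (adjusted p = 0.0196). It lost its call without control library 1 or U-IRX3ov library 3, leaving 0 lower. Acsm5 had 26, 17 and 17 counts in control and 10, 6 and 3 in U-IRX3ov libraries. It passed the filter on low counts only through the control libraries, which favours a fall. Other acyl-CoA enzymes, most of them mitochondrial, rose in 12 of 14 tested with 0 lower. Without the cytosolic Echdc1 and Acat2, 10 of 12 rose. Among the genes that rose were Hibch (0.56 ± 0.04) of valine breakdown, Echdc1 (0.49 ± 0.04), which decarboxylates ethylmalonyl-CoA, Hsdl2 (0.44 ± 0.04) and Hsd17b10 (0.38 ± 0.05).

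Peroxisomal oxidation, which shortens very long chains, rose in 13 and fell in 1 of 15 tested, with a median of 0.33. Hsd17b4, a multifunctional enzyme of this route, rose by 0.45 ± 0.03. Phyh, the alpha-oxidation enzyme for phytanic acid, rose by 1.00 ± 0.06. Acaa1b rose by 1.04 ± 0.05, but it has a near-identical copy in Acaa1a, so its counts are uncertain. Abcd2, a peroxisomal transporter named after its value was seen, fell by 0.40 on the log2 scale. Electron transfer and flavin supply genes rose in 3 of 6 tested with 0 lower, namely Coq10a (0.78 ± 0.09), Etfrf1 (0.76 ± 0.07) and the FAD synthase Flad1 (0.41 ± 0.05). The riboflavin kinase Rfk was at -0.04 ± 0.06 (adjusted p = 0.615). Further ketone body genes rose in 3 of 7 tested with 0 lower. Slc16a1, a lactate and ketone body transporter, rose by 0.92 ± 0.04 and Aacs, which activates acetoacetate in the cytosol, by 0.37 ± 0.04. Without U-IRX3ov library 1, 1 gene of this list was called lower.

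Regulators known to act on fatty acid oxidation genes rose in 13 and fell in 2 of 18 tested, with a median of 0.37. Ppara, the nuclear receptor that activates these genes, had 1147, 1005 and 1050 counts in control and 2638, 2178 and 2145 in U-IRX3ov libraries (log2 1.44 ± 0.05, adjusted p = 4.21e-18). The coactivator Ppargc1b rose by 1.08 ± 0.05, Lpin1, a phosphatase that also coactivates Ppara, by 0.76 ± 0.04 and Pparg, the adipogenic receptor, by 0.61 ± 0.04. The 13 also hold the corepressors Ncor1 (0.20 ± 0.04) and Nrip1 (0.12 ± 0.04), named after their values were seen. Esrrg, another of the 13 named in this way, had 7, 15 and 11 counts in control and 37, 23 and 41 in U-IRX3ov libraries. On the control libraries alone Esrrg would not have passed the filter on low counts, which favours a rise in the count of regulators and in the median. The genes that fell, Nr2f2 (-0.22 ± 0.05) and the shared partner receptor Rxra (-0.12 ± 0.04), were named after their values were seen. Only 1 of the 2 was called without control library 2 or without U-IRX3ov library 3.

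**Figure D5:**
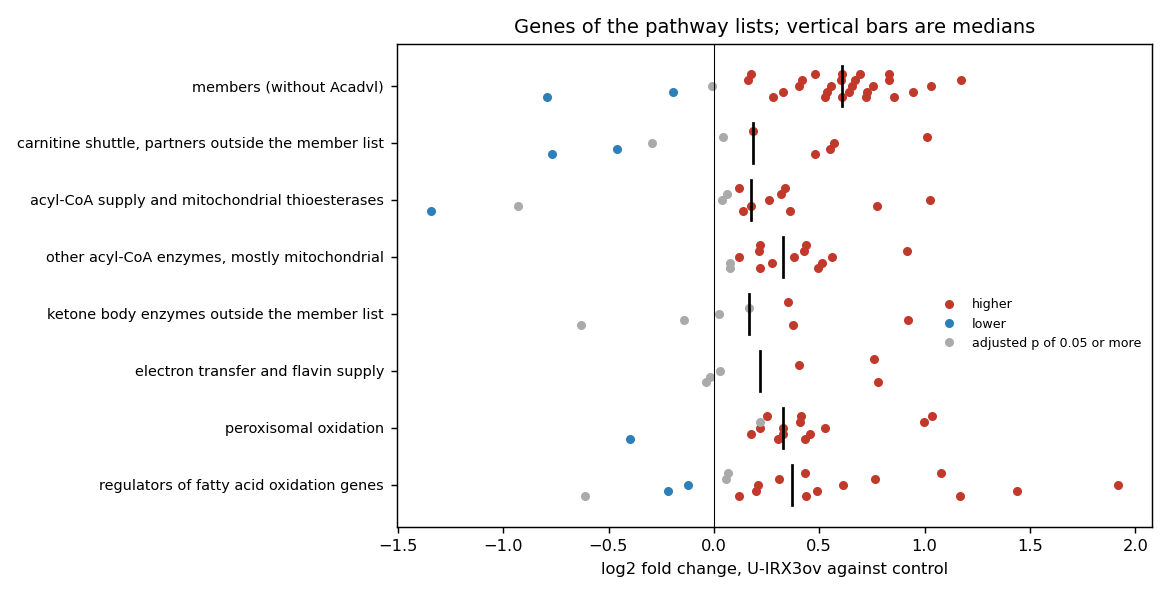
Log2 fold changes of the tested genes of 7 pathway lists beside those of 29 members (all but Acadvl), coloured by the edgeR call, with vertical bars at the medians. The member median (0.61) lies to the right of the list medians, which run from 0.17 to 0.37, and the difference was not tested.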

How the data were processed

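RNA-seq was analysed from 6 libraries (3 per genotype) of brown adipocytes differentiated in culture, with groups taken from the titles. The authors deposited raw counts per gene symbol. Reads were aligned with HISAT2 2.0.4 to mm10, per the submitters' processing notes. The sources used here name no counting program, annotation or strandedness, so genes that overlap others are uncertain. Filtering by filterByExpr left 14757 of 46095 rows, scaled by TMM. Differences were tested with the quasi-likelihood F test of edgeR 4.0.16 in R 4.3.3 (robust fit, 1 term for the group), with p-values adjusted by the Benjamini-Hochberg method over the 14757 genes. Each adjusted p comes from this fit. The SE is the log2 fold change divided by the square root of F. Gene lengths, coordinates and overlaps came from GENCODE M21 (GRCm38, the assembly of mm10), and sequences from RefSeq. DESeq2 1.42.0, limma 3.58.1, other scalings, filters and thresholds, a replicate block and leaving out each library served as alternatives. The scripts were tested on simulated data.

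The members and lists were chosen with earlier results of these data known. The exact test of the members' summed CPM is therefore not independent support for the list, and no other list has a test of its own. All members are named, with Irx3, Ucp1, Adipoq and up to 4 genes of each other pathway list by smallest p. Some genes of these lists are not reported here by name. The chi-square per degree of freedom between libraries was 3.02 to 5.20 within groups and 65.7 to 76.8 across groups.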

Additional observations from a re-analysis of the deposited data

How the results depend on the processing

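The counts of 26 members higher and 2 lower were the same with DESeq2, limma-voom, both other scalings, scaling without mitochondrially encoded genes, both other filters and without Acadvl (chosen after seeing the data). An adjusted p under 0.01 gave 25 higher. Without 1 library, 25 to 26 were higher and 2 lower, and the median log2 fold change ran from 0.58 to 0.63. Against a 1.2-fold change 1 member was lower, and against a 1.5-fold change 9 were higher and 0 lower. The difference in summed CPM was 3576, and 3010 without Hadha. Without 1 library it ran from 3396 to 3716 CPM. Scaling without mitochondrially encoded genes gave 3834, but its library sizes leave those genes out, so its CPM are on another scale. With that scaling the median log2 fold change of all genes shifted by 0.0017.

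No direction reversed except for Acadvl (-0.18 without control library 2, -0.19 without control library 3 and -2.30 without U-IRX3ov library 3, over a range of -2.30 to 3.29) and Bdh1 (0.06 without control library 3 and 0.10 without U-IRX3ov library 2, over a range of -0.12 to 0.10), neither of which was called. The replicate numbers were not shown to pair the libraries, since deviations of libraries with the same number correlated at 0.02, 0.07 and 0.05. With the number as a block, 26 members were higher and 2 lower, with a median of 0.61.

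Among the other lists, genes of acyl-CoA supply called lower (1) were 2 with upper-quartile scaling and 0 with at least 1 CPM in every library, DESeq2, an adjusted p under 0.01 or either fold test, and 0 to 1 without 1 library. Regulators called lower (2) were 1 at an adjusted p under 0.01, 0 in both fold tests, and 1 to 2 without 1 library. Ketone body genes called lower (0) were 0 to 1 without 1 library. Against a 1.2-fold change 2 of 13 genes of acyl-CoA supply and 7 of 14 other acyl-CoA enzymes were higher. So were 6 of 15 peroxisomal genes and 8 of 18 regulators. Against a 1.5-fold change 1 of 9 carnitine partners and 2 of 13 genes of acyl-CoA supply were higher. So were 1 of 14 other acyl-CoA enzymes, 1 of 7 ketone body genes and 1 of 6 electron transfer genes. Higher too were 2 of 15 peroxisomal genes and 5 of 18 regulators. In the 1.5-fold test 0 genes of the carnitine, peroxisomal or any other list were lower. Over all genes, the 1.2-fold test called 7.6% higher, and the 1.5-fold test called 1.88% higher and 2.74% lower. The fold tests ask for a larger change by construction. The cause of the other shifts was not tested. Low counts limit Cpt1b, Bdh1, Acad10, Acad12 and Sirt5, and overlapping genes limit Cpt1b, Etfb and Acadvl, for which DESeq2 gave no adjusted p.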
